A study of Mus musculus with 6 samples.

Results

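In cells sorted as quiescent muscle stem cells (qMuSCs) from resting mouse muscle, 7 of the 9 AP-1 genes examined passed the expression minimum. Jund, Jun and Fos were at the top, and Fos, Jun and Junb were lower in the sorted cells of cD2KO mice than in those of WT mice. Markers of other cells were also present, and Acta2 and Myh11, markers of smooth muscle, were above Pax7 in every library. Fos averaged 615 ± 383 in WT and 293 ± 69.7 in cD2KO, in CPM (counts scaled to a library of 1e6), Jun 877 ± 420 and 528 ± 83.0 CPM, and Junb 314 ± 99.9 and 205 ± 60.1 CPM (SD, n = 3 mice each). All 3 differences passed an unadjusted p of 0.05 and none passed after adjustment over all genes tested. No member passed without the WT mouse c129, in which most of the family was highest, and the log2 fold change of Fos then went from -1.07 to -0.43. Over all genes, 770 were lower with all mice and 399 without c129. No member passed without the cD2KO mouse fl128 either, with Fos at -1.14. With a marker score of mural cells as covariate the signs of Fos, Jun and Junb turned, and with an immune or endothelial score they stayed negative. None of these genes passed the threshold with any of the scores. The summed mural and immune markers had no overlap between the groups, so these scores and the genotype cannot be fully told apart. The 9 genes are Fos, Fosb, Fosl1, Fosl2, Jun, Junb, Jund, Atf3 and Batf, taken by name out of the 31053 genes of the count table.

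AP-1 is a dimer of basic leucine zipper (bZIP) proteins. Fos proteins (Fos, Fosb, Fosl1 and Fosl2) cannot pair with themselves and bind DNA as partners of Jun proteins (Jun, Junb and Jund), which can also pair with each other, and the related Atf3 and Batf join the same network. Several of these genes are immediate early genes, transcribed within minutes of a growth factor, a stress signal or injury without new protein synthesis. In muscle stem cells they are known to be induced when cells leave quiescence and also by the enzymatic dissociation that precedes cell sorting, so that their RNA in sorted cells can reflect the isolation as well as the tissue.

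RNA was sequenced from GFP-positive cells sorted from 6 mice aged 3 to 4 months, all treated with tamoxifen and all carrying the Pax7nGFP reporter and floxed Dio2 alleles. The 3 WT mice (c124, c129 and c130) had the genotype Pax7nGFP/+;Pax7+/+;Dio2Fl/Fl. The 3 cD2KO mice (fl125, fl126 and fl128) had the genotype Pax7nGFP/+;Pax7-CreERT2/+;Dio2Fl/Fl. In these mice the tamoxifen-activated recombinase Pax7-CreERT2 deletes Dio2, the gene of the thyroid hormone activating deiodinase D2, in Pax7-expressing cells. Since no WT mouse carried Cre, an effect of the Cre allele and an effect of Dio2 loss cannot be told apart. The comparison asked how loss of D2 in muscle stem cells changes their RNA.

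The promoters of the members on which the results turn are shown first. These are Fos, Jun and Junb, which passed the unadjusted threshold, and Atf3, the member with no overlap between the groups. Each sequence holds the 250 bases before the RefSeq start site of GRCm38.p6, the assembly also called mm10, read 5′ to 3′ on the strand of the gene, and capitals mark TGACG, the first part of the cAMP response element, or its reverse complement.
Fos: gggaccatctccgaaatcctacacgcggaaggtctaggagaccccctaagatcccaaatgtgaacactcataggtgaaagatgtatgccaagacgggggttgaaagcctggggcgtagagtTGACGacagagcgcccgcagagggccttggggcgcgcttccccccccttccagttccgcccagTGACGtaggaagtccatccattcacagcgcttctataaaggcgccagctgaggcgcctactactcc
Jun: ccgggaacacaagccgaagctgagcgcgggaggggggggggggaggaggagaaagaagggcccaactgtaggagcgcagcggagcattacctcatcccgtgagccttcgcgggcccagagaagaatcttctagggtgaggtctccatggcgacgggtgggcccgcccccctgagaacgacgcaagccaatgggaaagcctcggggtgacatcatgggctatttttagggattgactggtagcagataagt
Junb: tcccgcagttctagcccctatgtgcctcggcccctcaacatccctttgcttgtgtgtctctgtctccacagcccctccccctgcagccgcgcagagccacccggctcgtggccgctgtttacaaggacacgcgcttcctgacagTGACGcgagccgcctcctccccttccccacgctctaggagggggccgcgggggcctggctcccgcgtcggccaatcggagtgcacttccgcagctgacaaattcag
Atf3: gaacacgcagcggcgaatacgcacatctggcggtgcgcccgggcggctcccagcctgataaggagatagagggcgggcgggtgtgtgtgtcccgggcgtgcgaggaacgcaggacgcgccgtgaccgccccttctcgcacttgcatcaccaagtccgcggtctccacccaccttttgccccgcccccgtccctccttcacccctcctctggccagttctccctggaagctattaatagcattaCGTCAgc
The windows lie at chr12:85473640-85473889 on the plus strand for Fos, chr4:95052223-95052472 on the minus strand for Jun, chr8:84978749-84978998 on the minus strand for Junb and chr1:191183334-191183583 on the minus strand for Atf3. Of the 9 members, 8 had a window of 300 bases (250 before and 50 after the start) in the RefSeq table of 32851 windows. For 6 of the 8, the bases after the start were also found in a GENCODE transcript of the same gene, and Junb and Jund were the exceptions. For Jund the bases before the start end at chr8:70697738, ahead of the GENCODE gene start at 70698949, so this window may not be its promoter. On both strands, 0 of the 8 windows held TGACTCA, the site that AP-1 dimers bind, which 5.20% of all windows held. The full cAMP response element TGACGTCA was in 0 of the 8 and in 1.79% of all windows, and the CArG box, which serum response factor binds, was in 0 of the 8 and in 1.63% of all windows. The shorter TGACG, which is contained in TGACGTCA and was chosen after seeing the data, was in 5 of the 8 and in 20.8% of all windows. Counted from 1 at the 5′ end of the window, the letters began at bases 122 and 185 in Fos, 191 in Fosb, 145 in Junb, 153 in Batf and, on the opposite strand, covered bases 244 to 248 in Atf3. These are matches of letters within a short window and no measure of binding. Other variants of these sites and bases further upstream were not searched, so a count of 0 does not show that a gene lacks a site.

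The libraries held between 2184073 and 3897787 counts on genes, with the groups overlapping (p = 0.7 by an exact two-sided permutation test, which cannot go below 0.1 with 3 mice against 3), and 3 counts stood for 0.768 to 1.36 CPM. Of all genes, 11633 passed a mean of 10 normalized counts and were tested with edgeR. Dio2 had 5.38, 1.84 and 3.46 CPM in c124, c129 and c130 of WT, against 6.80, 1.71 and 0.314 CPM in cD2KO mice fl125, fl126 and fl128, so its counts did not separate the genotypes (p = 0.7, exact permutation test, two-sided). The label of the cells was checked against markers. Pax7 was found in every library at 211 to 688 CPM, with the lowest value in c129 and the highest in fl125, while markers of smooth muscle and other mural cells lay on either side of it. Acta2 at 1559 to 7901 CPM and Myh11 at 1984 to 6098 CPM were above Pax7 in every library, and Mcam at 64.1 to 138 CPM was below it in every library. In RNA of a bulk sample, fewer cells of a type and less RNA per cell cannot be told apart. A pair of libraries stood apart, c129 by its early genes and fl125 by its immune markers, and results are given with and without them.

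The Fos subfamily was led by Fos and Fosb, while Fosl1 was close to absent. Fos (ENSMUSG00000021250, chr12:85473890-85477273, plus strand) is the prototype early gene, and its product is short-lived. The WT mice c124, c129 and c130 had 298, 1040 and 507 CPM of Fos, and the cD2KO mice fl125, fl126 and fl128 had 214, 346 and 320 CPM. The cD2KO mice lay close together, while c129 was far above all others and c124 was below fl126 and fl128, so that the groups overlapped. Fos was lower in cD2KO by a log2 fold change of -1.07 (SE 0.43, 95% interval -2.07 to -0.07), or 2.10-fold (edgeR quasi-likelihood test, adjusted p = 0.388).

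Fosb (ENSMUSG00000003545, chr7:19302696-19310051, minus strand), the closest relative of Fos, is best known for stable forms that build up in stimulated neurons. In the same sequence of mice, it was at 163, 968 and 442 CPM in WT and at 106, 236 and 163 CPM in cD2KO. As for Fos, c129 was highest and fl125 lowest, and here c124 was level with fl128. The fitted difference of Fosb, -1.64 on the log2 scale, was larger than that of Fos, and its interval of -3.44 to 0.17 was wider and included 0 (edgeR, adjusted p = 0.466). Fosl2 (ENSMUSG00000029135, chr5:32135801-32157842, plus strand), also called Fra-2, lacks the strong activation domain of Fos and is known to be more lasting in its expression. Fosl2 was at 90.9, 68.5 and 80.7 CPM in WT and at 87.9, 46.9 and 56.0 CPM in cD2KO. It did not share the peak in c129, where it was lowest among the WT mice, and its log2 difference was -0.34 (95% interval -0.87 to 0.19, edgeR, adjusted p = 0.644). Without fl125, whose level was that of a WT mouse, the difference of Fosl2 was -0.60 and passed the threshold (edgeR, adjusted p = 0.193). Fosl1 (ENSMUSG00000024912, chr19:5447547-5455946, plus strand), or Fra-1, had 4, 0 and 0 counts in the WT mice and 2, 0 and 4 counts in the cD2KO mice, at or near the floor of 3 counts, and was not tested.

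All 3 genes of the Jun subfamily were abundant, and they did not move as 1 group. Jun (ENSMUSG00000052684, chr4:95049034-95052222, minus strand, a single exon) encodes the partner with the strongest activation domain. WT mice c124, c129 and c130 had 506, 1333 and 791 CPM of Jun, and cD2KO mice fl125, fl126 and fl128 had 594, 556 and 435 CPM. WT mouse c124 lay within the range of the cD2KO mice, and c129 was again highest. Jun was lower in cD2KO by a log2 fold change of -0.73 (SE 0.30, 95% interval -1.39 to -0.07), or 1.66-fold (edgeR, adjusted p = 0.375).

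Junb (ENSMUSG00000052837, chr8:84974484-84978718, minus strand) often restrains Jun-driven transcription and cell division. It was at 207, 406 and 328 CPM in WT and at 208, 263 and 143 CPM in cD2KO. Here too c129 was highest, and c124 lay below fl125 and fl126. The log2 fold change was -0.62 (SE 0.27, 95% interval -1.21 to -0.03), or 1.54-fold lower in cD2KO (edgeR, adjusted p = 0.396).

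Jund (ENSMUSG00000071076, chr8:70698949-70700616, plus strand, a single exon) is the member that resting cells express constitutively. It was the most abundant member in all 6 mice, at 1255, 1376 and 1174 CPM in WT and 1254, 1679 and 1963 CPM in cD2KO. Its spread was small among the WT mice, c129 was not far above the others, and fl126 and fl128 were above all WT mice. The fitted difference was 0.36 on the log2 scale, opposite in sign to the other 6 tested members, with an interval of -0.10 to 0.82 that included 0 (edgeR, adjusted p = 0.541). Without fl125 it was 0.56 and passed the threshold (edgeR, adjusted p = 0.181). Strand was not stated for the counting, so reads of Jun and Junos, of Junb and Prdx2, and of Jund and Gm11175, which overlap on opposite strands, may not be told apart.

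Atf3 (ENSMUSG00000026628, chr1:191170296-191218039, minus strand), a stress-induced relative that represses transcription as a homodimer, was the only member whose groups did not overlap. Its levels were 50.4, 240 and 66.8 CPM in WT mice and 39.4, 41.1 and 48.1 CPM in cD2KO. The gap between c124 and fl128 was narrow, and the wide spread of the WT mice came from c129. No overlap with cD2KO lower was thus found in 1 of 7 members, and in 10% of all genes tested. Its fitted log2 difference of -1.47 had an interval of -3.06 to 0.12 (edgeR, adjusted p = 0.458), and Atf3 overlaps the small RNA Gm24748 on the other strand. Batf (ENSMUSG00000034266, chr12:85686669-85709087, plus strand), a partner of Jun proteins in lymphocytes and other immune cells, had 2, 22 and 2 counts in WT and 0, 12 and 6 counts in cD2KO. It was under the minimum for the test, and it had its highest count in c129 (two-sided exact permutation test of CPM, p = 0.8).

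**Figure D1:**
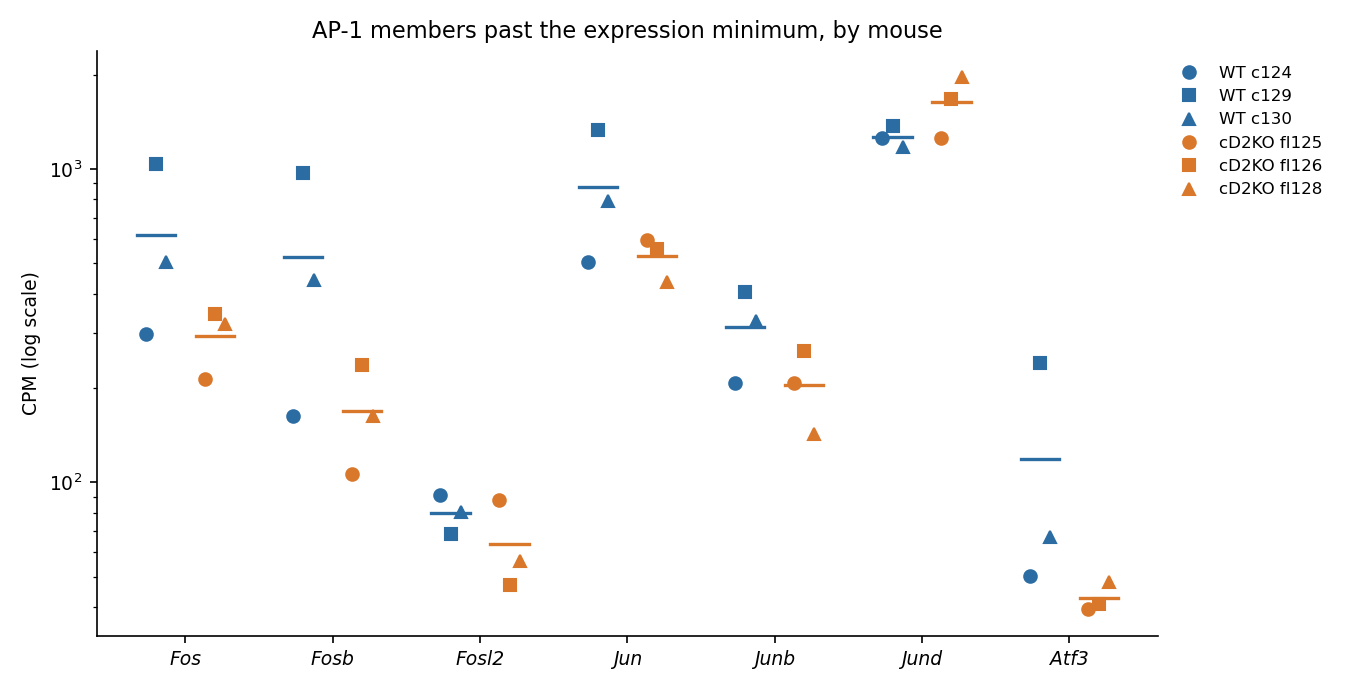
Level of the 7 AP-1 members past the expression minimum, in CPM on a log axis, in each WT (blue) and cD2KO (orange) mouse, with horizontal bars at the group means. The WT mouse c129 is highest for 5 members, Jund is the most abundant gene in every mouse, and Atf3 alone has all cD2KO mice below all WT mice.

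Across the family, 3 of 7 tested members passed the threshold of an unadjusted p of 0.05 with cD2KO lower, against 6.62% of all genes tested, and 0 of 7 passed with cD2KO higher, against 5.34% of all genes. Over all genes these were 770 lower and 621 higher, and with total counts in place of TMM scaling 953 lower and 439 higher, while the counts of members were the same. The median log2 fold change of the 7 members was -0.73, and over all genes tested it was -0.02. None of the 7 passed an adjusted p of 0.1, and the lowest adjusted p was 0.375, that of Jun.

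The family's pattern among mice was that of c129. Of the 7 tested members, 5 (Fos, Fosb, Jun, Junb and Atf3) were highest in c129, Fosl2 was highest in c124 and Jund in fl128. The mean log2 CPM of the 7 members was 7.82, 9.06 and 8.34 in c124, c129 and c130 of WT, against 7.64, 7.88 and 7.71 in cD2KO mice fl125, fl126 and fl128. WT mouse c124 thus lay below fl126 and within 0.2 of the other cD2KO mice, and the WT mice differed among themselves more than the cD2KO mice did. Fos, Fosb and Atf3 were lowest in fl125, Jun and Junb in fl128.

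When c129 was left out, 0 members passed. Over all genes, 399 of 11537 were lower in that fit, against 770 of 11633 with all mice. Without c129, the log2 fold changes were -0.43 for Fos, -0.81 for Fosb, -0.28 for Jun, -0.37 for Junb and -0.42 for Atf3 (edgeR with 2 WT and 3 cD2KO mice, adjusted p from 0.737 to 0.841). All 5 were still negative, and those of Fos, Fosb, Jun and Atf3 were under 0.5 times their size with all mice. When c124 was left out instead, the WT mouse with the lowest levels of these genes, all 5 passed, with -1.40 for Fos and -2.07 for Fosb. In that fit 805 of 11493 genes were lower. Leaving out fl128 also left 0 members past the threshold, with -1.14 for Fos, -0.61 for Jun and -0.42 for Junb, while 676 of 11634 genes were lower. The 6 fits that leave out 1 mouse each gave an unadjusted p under 0.05 in 3 for Fos, 3 for Jun, 2 for Junb, 2 for Atf3 and 1 each for Fosb, Fosl2 and Jund. With both c129 and fl125 left out, an alternative chosen after seeing the data, Fos was at -0.24 and did not pass, while Fosl2 at -0.71 and Jund at 0.62 did (edgeR, adjusted p = 0.101 and adjusted p = 0.127).

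**Figure D2:**
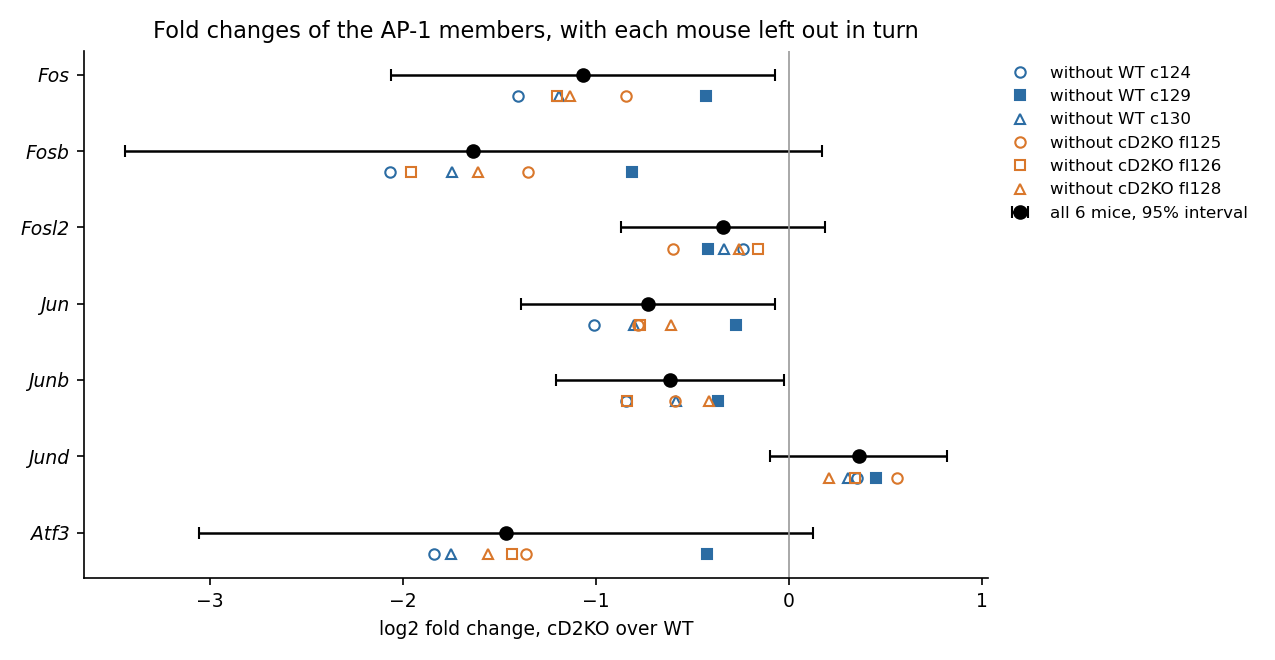
Log2 fold change (cD2KO over WT) of the 7 tested AP-1 members from edgeR with all 6 mice (black, with 95% intervals) and with each mouse left out in turn (coloured symbols below). Without c129 (filled squares) the differences of Fos, Fosb, Jun, Junb and Atf3 come closest to 0, with -0.43 for Fos and -0.28 for Jun.

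The balance within the family was read from ratios in the same mouse, which need no scaling between libraries. Counts were divided by those of Jund, a scale chosen after seeing the data. Fos was at 0.238, 0.756 and 0.432 reads per read of Jund in c124, c129 and c130 of WT, against 0.171, 0.206 and 0.163 in cD2KO mice fl125, fl126 and fl128. On this scale all cD2KO mice were below all WT mice. For Atf3 the ratios were 0.0402, 0.174 and 0.0569 in WT and 0.0314, 0.0245 and 0.0245 in cD2KO, again without overlap. The ratios of Fosb, Fosl2, Jun and Junb overlapped, since c124 was in each case at or below a cD2KO mouse or fl125 was within the WT range. No overlap with cD2KO lower was found for 2 of 6 members and for 21% of all genes as a ratio to Jund. That share was above the 10% in CPM, and Jund itself was highest in fl126 and fl128. Without c129 the mean ratio of Fos in WT was 0.335, against 0.180 in cD2KO.

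**Figure D3:**
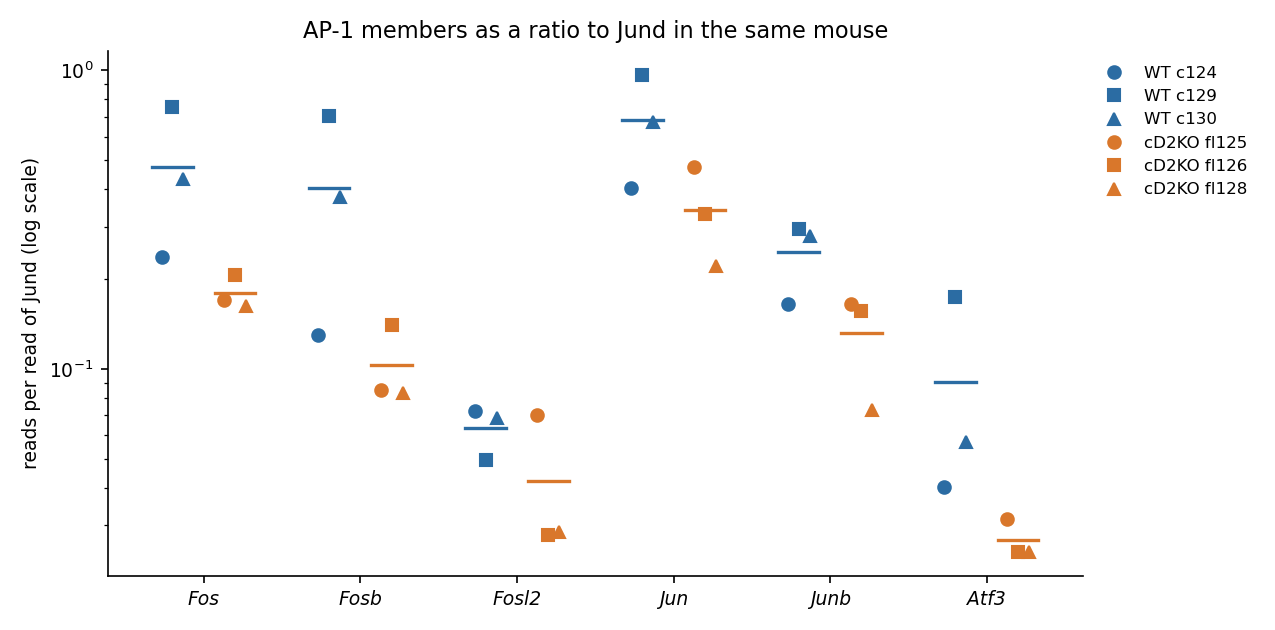
Reads of 6 AP-1 members per read of Jund in the same mouse, on a log axis, for WT (blue) and cD2KO (orange) mice, with horizontal bars at the group means. Fos and Atf3 have all cD2KO mice below all WT mice, and the other 4 members overlap.

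Levels between members were compared per length, as CPM per kilobase of all annotated exons. Jund was at 761 ± 61.0 CPM per kilobase in the sorted cells of WT mice. It was followed by Jun at 275 ± 132 and Fos at 262 ± 163, Junb at 136 ± 43.4, Fosb at 84.0 ± 65.5 and Atf3 at 55.2 ± 48.7 (SD, n = 3 mice). Fosl2 followed at 8.27 ± 1.16, and Batf at 2.21 ± 3.08 and Fosl1 at 0.168 ± 0.291 were lowest. Jund stood clear of Jun, since its lowest WT mouse (704) was above the highest for Jun (418), and Fosl2 stood clear of Atf3, whose lowest WT mouse was at 23.4. The ranges of Jun, Fos, Junb, Fosb and Atf3 over the WT mice overlapped from each to the next. All members were measured in the same mice and ranges ignore this pairing, so the order of neighbours within a mouse was not tested. Members further apart did not overlap, since the lowest WT mouse for Jun (159) was above the highest for Fosb (155) and Atf3 (111), and the lowest for Fos (127) was above the highest for Atf3. In cD2KO the order was the same, with Jund at 979 ± 214, Jun at 166 ± 26.0, Fos between 91.1 and 147, Junb at 88.9 ± 26.1, Fosb at 27.0 ± 10.4, Atf3 at 19.9 ± 2.14 and Fosl2 at 6.57 ± 2.23. If the libraries were made from transcript ends, which the sources used here do not state, levels per length would be too low for genes with long exons such as Fosl2 and Fosb.

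The genes outside the family that tracked it most closely over the 6 mice were, by Pearson's r of log2 CPM with the mean of the 7 members, Hspa5 (0.997), Rassf2 (0.992), Agps (0.990), Phlda1 (0.990) and Ubl3 (0.989). For Fos alone they were Sbno2 (0.992), Phlda1 (0.990) and Dusp7 (0.988). These are descriptions over 6 points picked from all genes tested, and all points share the high value of c129.

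Among bZIP relatives outside the core family, 4 of 10 tested genes were lower in cD2KO and 0 higher, against 6.62% and 5.34% of all genes tested, with a median log2 fold change of -0.50. All 4 were without overlap between the groups, which was so in this direction for 10% of all genes. Among them, Maf, the founding member of the large Maf factors, was lower by a log2 fold change of -0.61 (edgeR, adjusted p = 0.204), Jdp2, a Jun-binding repressor, by -0.73 (adjusted p = 0.204) and Batf3, a factor of dendritic cells, by -1.44 (adjusted p = 0.396). Batf3 had only 22, 19 and 13 counts in WT mice and 6, 6 and 5 counts in cD2KO mice. Its mean of 11.2 normalized counts was close to the minimum of 10. The small Maf gene Maff, which did not pass, was at 49.4 CPM in c129 and at 8.17 to 13.6 CPM in the other mice.

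The upstream kinases showed no common direction. Genes that carry signals to Fos and Jun were those of the JNK, ERK and p38 routes and Srf, Elk1, Elk3, Elk4 and Creb1. Of 20 tested, 1 was higher and 1 lower, against 5.34% and 6.62% of all genes tested. These counts were close to those shares, and the median log2 fold change was -0.01. Mapk3, which encodes ERK1, was higher in cD2KO (0.57, edgeR, adjusted p = 0.367), and Mapk14, which encodes p38α, was lower (-1.01, adjusted p = 0.228). Of 10 genes whose products destabilize or bind AU-rich mRNAs such as that of Fos or mark Fos and Jun proteins for degradation, 1 was lower and 0 higher. The shares over all genes tested were 6.62% lower and 5.34% higher, and the median of the 10 genes was -0.16. The lower gene was Zfp36l1, an AU-rich element binding protein that promotes mRNA decay, with 276 ± 11.8 CPM in WT against 200 ± 9.94 CPM in cD2KO (-0.47, edgeR, adjusted p = 0.329).

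Of 10 tested textbook targets of AP-1, 2 were lower in cD2KO and 0 higher, against 6.62% and 5.34% of all genes tested. The median log2 fold change of the 10 targets was -0.45. Ccl2, a chemokine that attracts monocytes, was at 4.61, 23.6 and 7.62 CPM in WT and 0.906, 1.37 and 2.51 CPM in cD2KO, with its peak in c129 and 2 to 8 counts in the cD2KO mice (-2.82, SE 0.73, edgeR, adjusted p = 0.124). Cd44, the hyaluronan receptor, averaged 50.7 ± 13.1 CPM in WT against 27.2 ± 2.92 CPM in cD2KO (-0.90, edgeR, adjusted p = 0.162).

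The other early genes that dissociation is known to induce had their peak in c129 as well. Of 29 tested genes, 12 were lower in cD2KO and 0 higher, against 6.62% and 5.34% of all genes tested. Of the 29, 28 had a log2 fold change below 0, and the median was -0.70. Klf4 and Klf2, zinc finger factors of the Kruppel-like family, were lower, with differences on the log2 scale of -1.41 and -1.45 (adjusted p = 0.0885 for both in edgeR). The antiproliferative gene Btg2 was lower by -1.30 (adjusted p = 0.132) and Dusp6, a phosphatase of ERK, by -1.15 (adjusted p = 0.152). As with the AP-1 members, 25 of these 29 genes (86.2%) were highest in c129, which was so for 22.5% of all genes tested. Without c129, 4 of 28 were lower, namely Klf4 (-1.04), Klf2 (-1.17), Btg2 (-0.77) and Dusp6 (-0.76), against 399 of 11537 genes tested. The median of the 28 was then -0.29 and 26 were below 0, while the median of all genes was 0.01. Relative to Jund, 18 of the 29 had all cD2KO mice below all WT mice, against 21% of all genes.

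**Figure D4:**
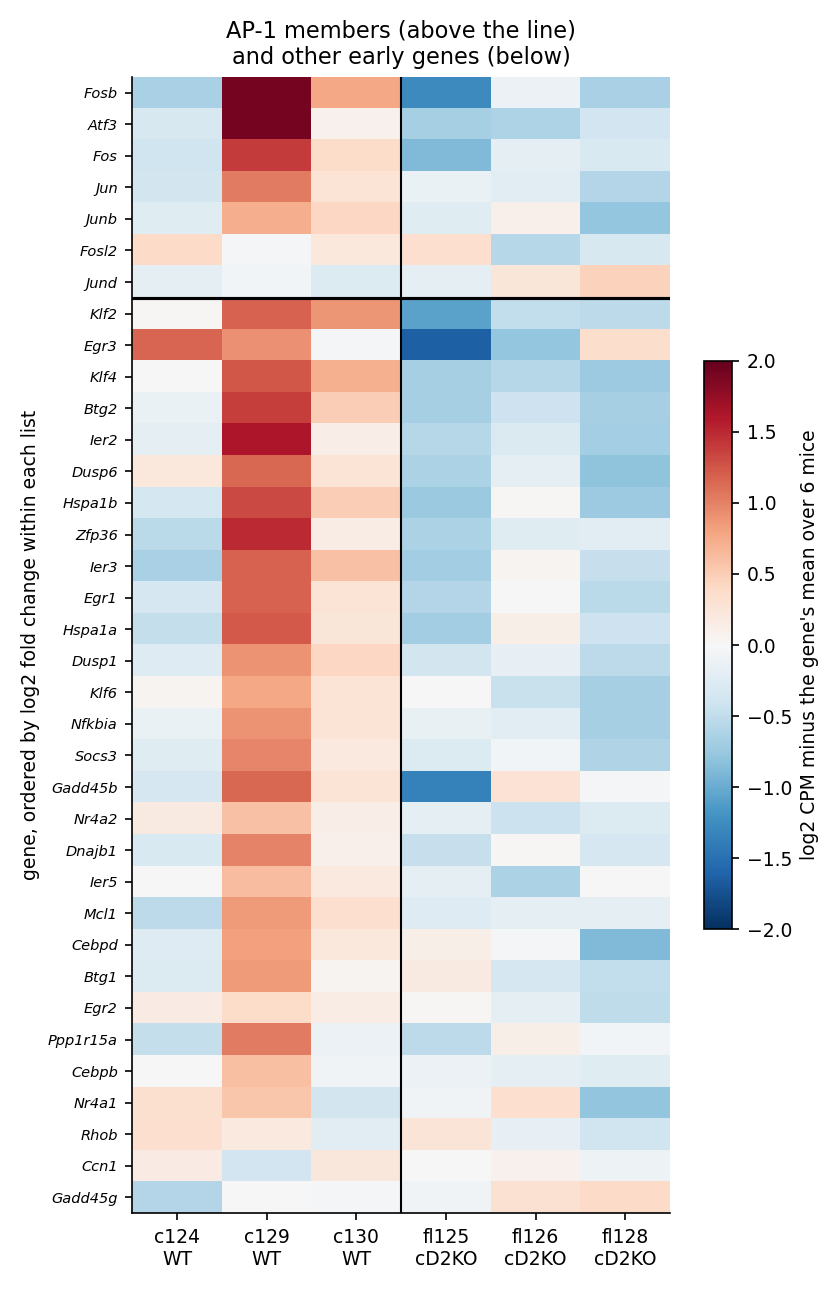
Log2 CPM of the 7 tested AP-1 members (above the line) and of 29 other early genes (below) in each mouse, minus the mean of the gene over the 6 mice, from blue (below the mean) to red (above). The column of c129 is red for 5 AP-1 members and most other early genes, while Fosl2 and Jund do not follow it.

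Immune markers moved with the same mice and the same groups, and the other cell lists did so only in part or not at all. The summed level of the immune list was 4674, 9014 and 5617 CPM in c124, c129 and c130 of WT, against 290, 3000 and 3471 CPM in cD2KO mice fl125, fl126 and fl128. It was thus highest in c129, as 5 of the AP-1 members were, and lowest in fl125, as Fos, Fosb and Atf3 were. For these cell lists, the shares over all genes tested were 6.62% lower and 5.34% higher in cD2KO. Of the 17 immune genes, 15 were tested, and 4 of these were lower in cD2KO (Ptprc, Itgam, Cd68 and Adgre1). All 15 were highest in c129 and lowest in fl125, and Cd79a of B cells was at 0 in all mice. Endothelial markers summed to 261, 322 and 392 CPM in WT and 224, 206 and 263 CPM in cD2KO. These sums overlapped between the groups and were highest in c130. Of 10 tested endothelial genes, 6 were lower, Flt1 and Kdr among them, and 0 higher. Mural markers went the other way, with 9348, 5470 and 6891 CPM in WT and 11200, 11966 and 16399 CPM in cD2KO and 5 of 10 genes higher, and c129 was the lowest of all mice. Summed markers of muscle stem cells were at 2258, 1775 and 2271 CPM in WT and 3140, 2362 and 1999 CPM in cD2KO, with 3 of 12 genes higher (Itga7, Cdh15 and Myf5) and 1 lower (Cxcr4).

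Among other lists, fibroadipogenic progenitor markers had 2 of 7 genes lower (Col1a2 and Lum), markers of activated myogenic cells 2 of 7 lower (Top2a and Mki67), and muscle fibre markers 0 of 6 in either direction at an unadjusted p under 0.05. Over all genes tested, 6.62% were lower and 5.34% higher. With the mean log2 CPM of the immune markers as a covariate, Fos was at -0.39 and Jun at -0.67 (edgeR, adjusted p = 0.767 and adjusted p = 0.558), and with the endothelial score Fos was at -0.30 and Jun at -0.31. Junb was at -0.51 with the immune score and at -0.71 with the endothelial score, against -0.62 without a covariate. The mural score turned the sign of 5 members, to 0.60 for Fos, 0.86 for Fosb, 0.44 for Jun, 0.29 for Junb and 0.57 for Atf3, and of these Fosb alone passed the unadjusted threshold. Fos, Jun and Junb thus did not pass the threshold with any of the 3 scores. The SEs were larger with the endothelial score, at 0.80 for Fos, 0.63 for Jun and 0.60 for Junb, against 0.43, 0.30 and 0.27 without a covariate. With the immune score they were 0.46, 0.44 and 0.36. Not passing is therefore not the same as a smaller difference. The summed immune and mural markers had no overlap between the groups, so that these scores and the genotype cannot be fully told apart among 6 mice. The part of these cells in the AP-1 differences was not tested. The share of mitochondrial counts was 15.8% in c124, 9.09% in c129 and 11.3% in c130, and 12.6 to 13.5% in cD2KO, so that c129 was also the lowest by this measure.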

How the data were processed

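GFP-positive cells were sorted as muscle stem cells from 3 WT and 3 cD2KO mice, and RNA-seq used 1 library per mouse. The authors deposited raw counts, whole numbers of reads per gene without normalization. The submitters' processing notes name bcl2fastq, STAR 2.6.0a, HTSeq 0.9.1 and mm10, and the Methods name a human assembly beside mm10, which was taken as the build. Gene annotation, strand use and PCR duplicate removal were not given in the sources used here. Without molecular identifiers, floors of 3 counts cover counting error only. The RNA was extracted with the RNeasy Mini Kit and sequenced by a commercial digital RNA-seq service. Symbols and coordinates came from GENCODE M21, which holds 31011 of the 31053 gene identifiers, and promoters from RefSeq (GRCm38.p6).

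The expression minimum was that of the study, a baseMean (mean normalized count of DESeq2) over 10. The quasi-likelihood F test of edgeR 4.0.16 (robust, R 4.3.3) was run on the raw counts with TMM factors, with all 6 mice and no covariate. The threshold was an unadjusted p of 0.05, and adjusted p are Benjamini-Hochberg values over all 11633 genes tested. CPM used TMM-scaled library sizes, and log2 CPM a prior count of 2. For single values an exact permutation test, two-sided, was used. SDs are between mice. The script was tested on simulated data. The members and gene lists were chosen with earlier results of these data known, and the lists were described by counts and medians without a set test. The genes named are the 9 members, Dio2, up to 4 genes per list and direction with the smallest unadjusted p under 0.05, cell markers, and the 5 and 3 genes most like the members and Fos. Maff, Acta2 and Cd79a were named after their values were seen. Cyr61 of the early list is Ccn1 in the annotation, Zfp36 is in both the AU-rich and the early list, and Ccnd1 is in 2 lists.

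Alternatives were DESeq2 1.42.0, limma voom (limma 3.58.1), other scalings and filters, non-robust estimation, adjusted thresholds, each mouse left out, and immune, endothelial or mural marker scores as covariates. Leaving out c129 and fl125 together, ratios to Jund and the motif TGACG were added after seeing the data. Protein sequences were not used here, and a few genes are not reported here.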

Additional observations from a re-analysis of the deposited data

How the results depend on the processing

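The 7 tested members had 133 values under the alternatives, of which 92 kept their direction and side of the threshold, 21 kept the direction but no longer passed, 15 passed anew in the same direction and 5 changed sign. All 5 changes of sign came with the mural score as covariate (Fos 0.60, Fosb 0.86, Jun 0.44, Junb 0.29, Atf3 0.57). The 3 members lower became 5 with DESeq2 (Fos, Fosb, Jun, Junb and Atf3, lowest adjusted p 0.0782), 1 with the immune score (Fosl2 alone, at -0.86, with Fos, Jun and Junb no longer past the threshold) and 0 with the endothelial or mural score or at an adjusted p under 0.05 or 0.1. The 0 members higher became 1 with the immune score (Jund) and 1 with the mural score (Fosb). The 12 other early genes lower became 7, 1 and 0 with the immune, endothelial and mural scores, while 1, 0 and 5 were then higher (0 without a score). They became 19 with no minimum, and 0 and 2 at an adjusted p under 0.05 and 0.1. Over all genes, 770 lower and 621 higher became 180 and 308 with the endothelial score, 155 and 202 with the mural score, 0 and 1 at an adjusted p under 0.05, and 57 and 33 under 0.1. A minimum of 50 left 505 lower, and no minimum gave 939 higher. In that last fit Fos had an adjusted p of 0.00148, the lowest of any member in any alternative. With c129 and fl125 both left out there were 974 genes higher, 1 member higher (Jund), 1 lower (Fosl2) and 6 other early genes lower. For scores and filters the cause was not tested.

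Leaving out 1 mouse at a time gave 0 to 5 members lower and 0 to 1 higher, 4 to 20 other early genes lower, and 399 to 874 genes lower and 402 to 933 higher. The lowest counts of members, 0, came without c129 and without fl128, and the highest, 5, without c124. The count of 4 other early genes came without c129 and that of 20 without c124. No paired analysis was possible because the names of the mice carry no numbers shared between the groups. With 2184073 to 3897787 counts per mouse, Fosl1, Batf and Dio2 were too low for the test, and their differences were not detectable at this depth.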
